A study of Mus musculus with 14 samples.

Results

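The transcriptional response of the wild-type (WT) mouse liver to concanavalin A (ConA) was described from 7 liver RNA-seq libraries, taken by their labels from the 14 of the series: 4 WT ConA and 3 WT saline libraries, each from a different mouse. ConA is a plant lectin, and its injection into mice is a standard model of immune-mediated hepatitis. The ConA mice received 8 mg/kg intravenously, the saline mice received saline, and whole liver was taken 8 h later. The labels give neither strain nor age, and the study's methods give an age range of 6 to 10 weeks over all its experiments and a C57BL/6 background, with wild-type littermates of its knockout line as controls. A figure legend of the study that covers liver RNA-seq among other assays names mice of 8 weeks, at another ConA dose. The other 7 libraries come from Ythdf1 knockout mice and enter only as an alternative fit. The study used these livers to ask how an m6A reader protein shapes the hepatitis, and the comparison here asks only what ConA did in livers with the normal gene.

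After intravenous injection ConA collects in the liver, binds glycoproteins of sinusoidal cells and activates T cells and NKT cells, which release interferon gamma and tumor necrosis factor. Macrophages, endothelial cells and hepatocytes answer with chemokines, adhesion molecules and, through interleukin-6 and STAT3, the acute-phase proteins of plasma. Hepatocytes make up most of the RNA of the organ, so a whole-liver library reads mainly their metabolism, and smaller cell types only through genes that they alone express.

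The deposited values are TPM, a gene's share of all transcripts of a library after correction for its length, scaled to the same total in each library. Of 17656 listed genes, 10768 had a TPM of 1 or more in at least 3 of the 7 libraries and were tested with limma on log2(TPM + 1). Genes with a p under 0.05 after adjustment by the Benjamini-Hochberg method count as called, and fold changes are ConA minus saline on that log2 scale, which understates changes of genes with low TPM. Of the tested genes 53% were called, 2368 higher after ConA (22%) and 3336 lower (31%), and for 58% the 4 ConA mice did not overlap with the 3 saline mice. Genes that passed the filter only through the group where they are high are counted beside a list's calls, and lists given with no such count hold at most 2 of them. The median fold change of all tested genes was -0.07. These shares are the background against which the counts of each gene list below should be read. A rise or fall of 1 log2 unit or more was seen in 1098 called genes upward and 1509 downward, and a change of 3 units or more in 141 and 67.

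The libraries carried the liver's own markers. Alb, Apoa1, Ttr and Cyp2e1 ranked among the 64 most abundant genes in each of the 7. WT saline replicates 2 and 3 were closer to each other (median size of their log2 ratio 0.0782) than either was to replicate 1 (0.143 and 0.151), and the overall result is therefore also given with this pair averaged and counted as 1 mouse: 1841 genes higher and 2726 lower. WT ConA replicate 3 had the lowest value of the 4 ConA mice for 57.9% of tested genes, and without it 3476 genes were higher and 3607 lower. Sex is not among the labels. The study's methods describe male mice, whereas the Y-linked gene Ddx3y did not exceed 0.02 TPM and Eif2s3y did not exceed 0.07 TPM in any of the 14 libraries, with Uty at 0.87 to 2.12 TPM. Cux2, which female mouse livers are known to express more, had 14.4 to 14.9 TPM in the saline mice. WT saline replicate 1 also stood apart in mesothelial genes (mean log2(TPM + 1) of 1.92 against 0.43 and 0.49) and in male-biased genes (6.70 against 5.59 and 5.63). The sex-linked and sex-biased genes were singled out after their values were seen, and what part any of these differences has in the results was not tested.

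**Figure D1:**
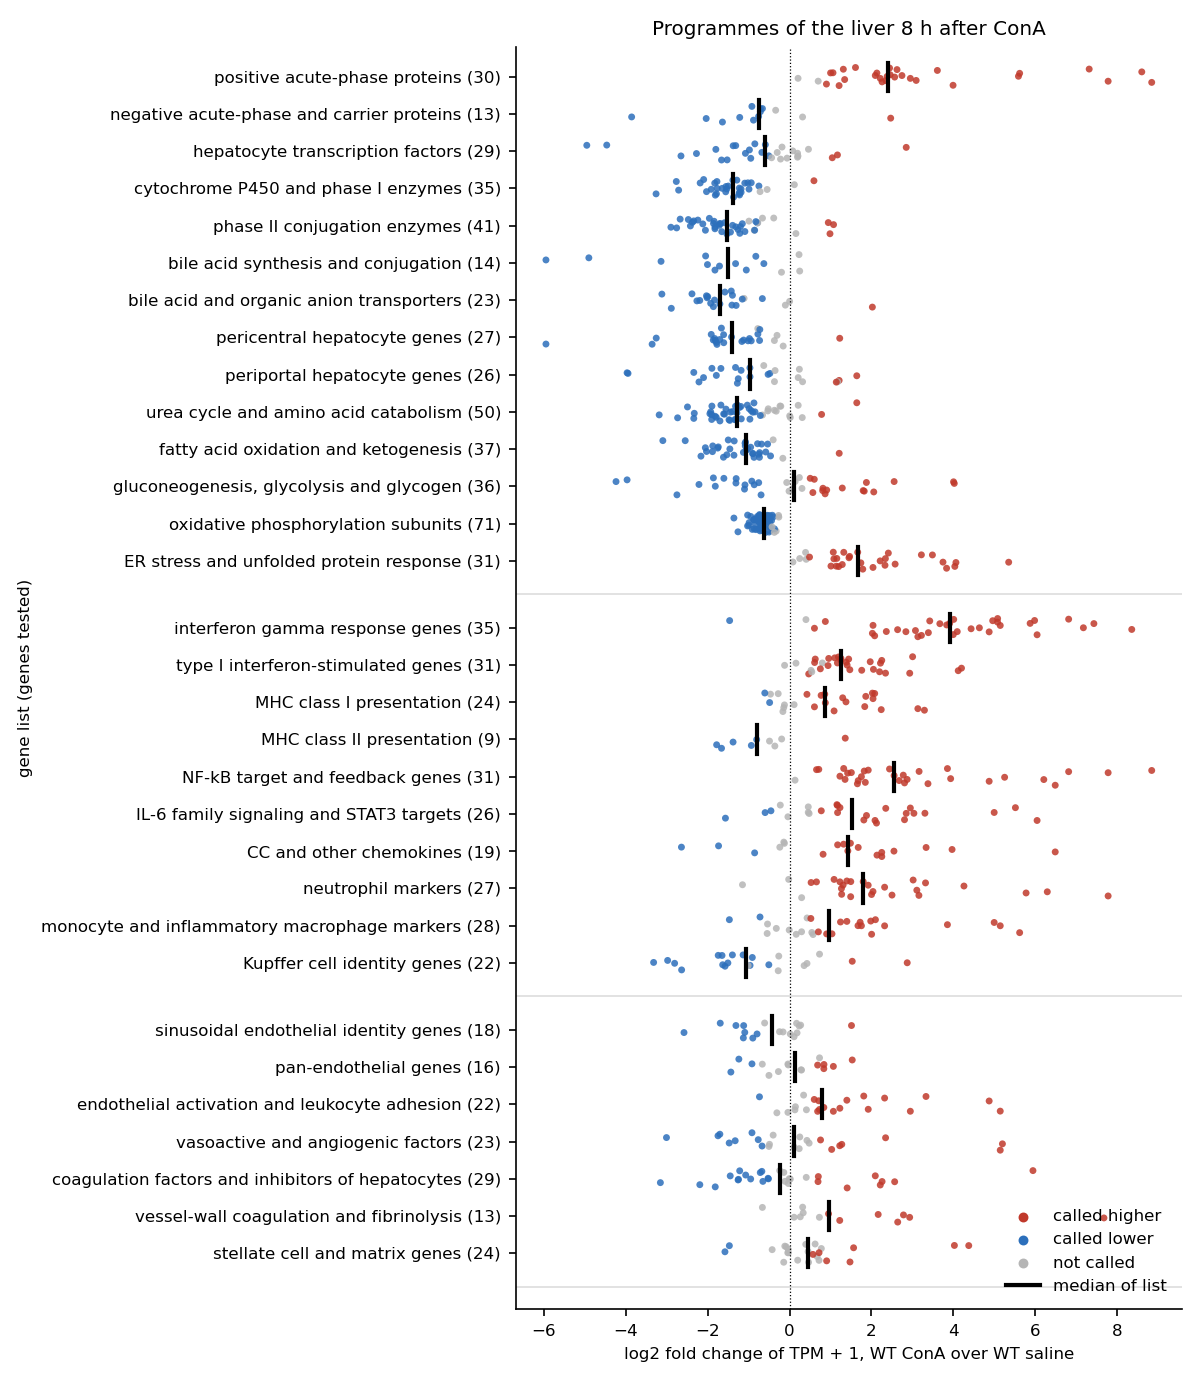
Log2 fold change of TPM + 1 (WT ConA over WT saline, x axis) of every tested gene in 31 gene lists, grouped as hepatocyte, immune and vascular, with the unfolded-protein-response list placed among the hepatocyte ones. Points are genes coloured by the limma call and black ticks are list medians, which reach 3.91 for interferon gamma response genes and -1.70 for bile acid and organic anion transporters.

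Most acute-phase genes rose. The 30 genes of positive acute-phase proteins, which the liver secretes in inflammation, held 3.68% to 4.0% of all TPM in the saline mice and 26.6% to 31.2% in the ConA mice. Of these genes 28 rose and 0 fell, with a median log2 fold change of 2.41 against -0.07 over all tested genes. Serum amyloid A, an acute-phase apolipoprotein, led the list. Saa2 had 154, 101 and 115 TPM in the saline mice and 42234, 49127, 49234 and 49917 TPM in the ConA mice, log2 fold change 8.6, SE 0.16, adjusted p 8.69e-09. Saa3 had 46.2, 40.95 and 53.9 TPM in the saline mice and 14932, 24824, 20659 and 30461 TPM in the ConA mice, log2 fold change 8.85, SE 0.23, adjusted p 3.38e-08. Every ConA mouse was thus far above every saline mouse. Saa1 had 369, 151 and 156 TPM in the saline mice and 29535, 34124, 33303 and 35401 TPM in the ConA mice (log2 fold change 7.32, SE 0.28, adjusted p 2.83e-07), while Saa4, the constitutive member of the family, had 485, 305 and 298 TPM in the saline mice and 338, 467, 339.7 and 518 TPM in the ConA mice and was not called (adjusted p 0.46). Saa1 and Saa2 are near-identical paralogs, so reads of 50 bases cannot be divided between them with certainty.

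Lipocalin 2, which binds bacterial siderophores, had 53.4, 63.4 and 71.1 TPM in the saline mice and 11859, 11906, 18023 and 14732 TPM in the ConA mice (log2 fold change 7.78, SE 0.18, adjusted p 2.88e-08). The 3 chains of fibrinogen, the clot-forming plasma protein, rose together: Fga had 1859.5, 1769 and 1751 TPM in the saline mice and 11840, 11666, 8469.8 and 10918 TPM in the ConA mice (log2 fold change 2.57, SE 0.14, adjusted p 1.57e-06). Fgb (log2 fold change 2.09) and Fgg (2.22) were called as well. Haptoglobin (Hp, 2.62), hemopexin (Hpx, 2.46) and the orosomucoid Orm2 (3.61), which scavenge free heme proteins or carry drugs in plasma, were higher in each ConA mouse than in any saline mouse. The antichymotrypsin Serpina3n (3.99), the metalloreductase Steap4 (5.59) and the endotoxin co-receptor Cd14 (5.62) also rose, although Serpina3 genes share long stretches of sequence. Hamp, the iron hormone hepcidin and a STAT3 target, had 3469, 2557 and 2687 TPM in the saline mice and 4553, 5782, 7236 and 4381 TPM in the ConA mice (log2 fold change 0.9, SE 0.2, adjusted p 0.0041), a smaller rise without overlap. C-reactive protein (Crp) rose as well (log2 fold change 1.31).

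The carriers that plasma loses in inflammation moved the other way. Of 13 negative acute-phase and carrier proteins, 10 fell and 1 rose (median -0.76), and their share of all TPM was 14.8% to 16.5% in saline and 8.26% to 10.8% in ConA mice. Albumin had 87030, 71987 and 71714 TPM in the saline mice and 56543, 37744, 42487 and 52469 TPM in the ConA mice (log2 fold change -0.71, SE 0.17, adjusted p 0.00685). Igfals, which stabilizes IGF-1 in plasma, had 110.2, 148 and 138 TPM in the saline mice and 12.4, 7.37, 8.17 and 5.74 TPM in the ConA mice (log2 fold change -3.86, SE 0.23, adjusted p 2.0e-06). The single rise was Serpina7, the thyroxine carrier, with 62.03, 17.8 and 15.9 TPM in the saline mice and 168, 153, 87.8 and 221 TPM in the ConA mice (log2 fold change 2.47, SE 0.46, adjusted p 0.00162). Transthyretin (Ttr, -0.92) and the retinol carrier Rbp4 (-1.64) fell. The albumin call was lost when no filter on low TPM was applied (adjusted p 0.137).

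**Figure D2:**
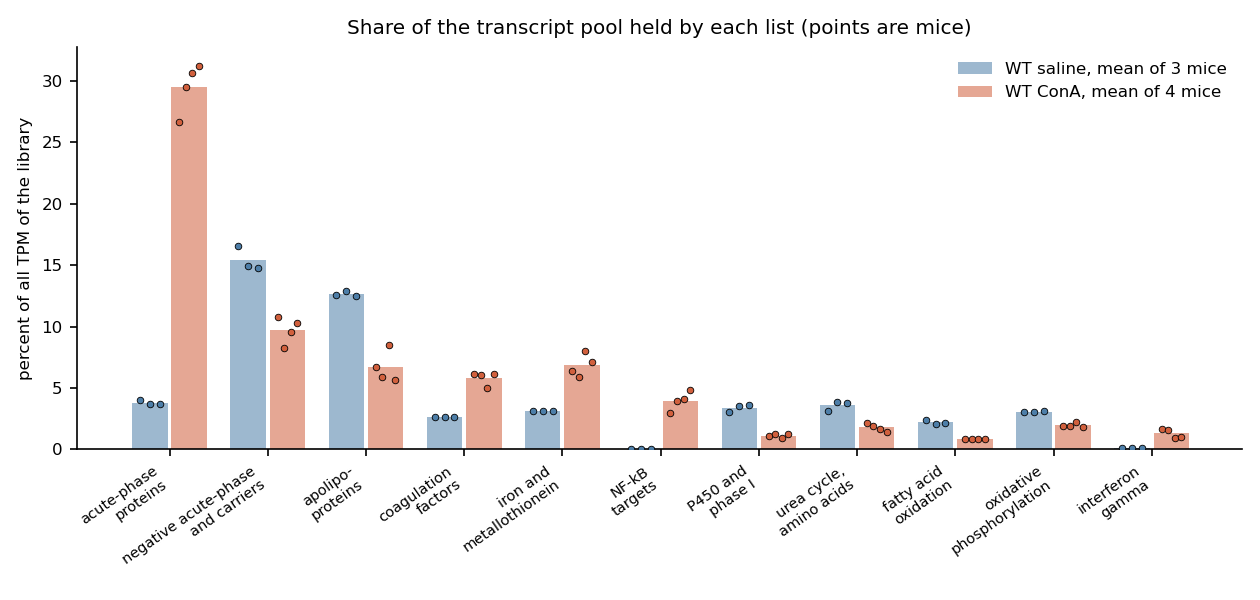
Percent of all TPM of a library (y axis) held by the genes of 11 lists, with bars for group means and a point for each mouse. Positive acute-phase proteins held 26.6% to 31.2% in the ConA mice against 3.68% to 4.0% in the saline mice, and several genes such as Lcn2 and the fibrinogens are counted in more than 1 list.

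Because TPM values are shares of a fixed total, a gain of this size lowers the share of other genes even where their transcripts did not change. The median ratio of each library to the geometric mean gives a scale that the abundant genes do not set. The factors were 1.03 to 1.05 in the saline mice and 0.81 to 1.08 in the ConA mice, with replicate 3 lowest, and the calls became 2974 higher and 3122 lower.

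Saa1 and Saa2 lie next to each other on chromosome 7, and the 200 bases before their transcription starts are printed here because these were among the most abundant induced transcripts. Promoters came from RefSeq on GRCm38.p6, the build in the submitters' processing notes, and covered 8713 of the 10768 tested genes. A window of 250 bases before each start was searched on both strands for 4 letter patterns: TTGCNNAA (C/EBP), TTCNNNGAA (STAT), GAAANNGAAA (the interferon-stimulated response element, ISRE) and GGGNNTTTCC (NF-kB), where N is any base. Overlapping matches were allowed. The C/EBP pattern occurred in 12 of 23 acute-phase promoters (52.2%) and in 7.93% of all tested promoters, and the STAT pattern in 30.4% and 6.15%. Over all called genes the C/EBP pattern did not follow direction, with 8.27% of promoters called higher and 8.51% of those called lower. For the STAT pattern these shares were 7.37% and 5.43%. Among 108 promoters of genes called higher by 3 log2 units or more, C/EBP was in 17.6%, STAT in 16.7%, ISRE in 13.9% and NF-kB in 12%. Members of the lists, such as Saa1 and Saa2, are among these genes. The C/EBP pattern was also in 6 of 29 promoters (20.7%) of the cytochrome P450 and phase I list, whose genes mostly fell. Capitals mark the C/EBP match of Saa1 (chr7:46742981-46743180, minus strand) and of Saa2 (chr7:46751633-46751832, plus strand), written 5′ to 3′. A match is a description of letters and does not show that a factor binds.
Saa1: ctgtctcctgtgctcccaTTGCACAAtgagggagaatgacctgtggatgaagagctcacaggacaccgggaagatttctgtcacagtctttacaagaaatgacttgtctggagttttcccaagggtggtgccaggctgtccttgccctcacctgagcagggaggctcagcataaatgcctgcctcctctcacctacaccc
Saa2: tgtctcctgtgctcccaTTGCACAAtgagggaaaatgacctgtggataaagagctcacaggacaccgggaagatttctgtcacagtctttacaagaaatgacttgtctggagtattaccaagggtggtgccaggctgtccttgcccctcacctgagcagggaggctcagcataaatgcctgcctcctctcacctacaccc

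Cebpd had 4.64, 5.37 and 4.84 TPM in the saline mice and 39.04, 37.4, 41.2 and 51.02 TPM in the ConA mice (log2 fold change 2.85, SE 0.15, adjusted p 9.81e-07), and Cebpb had 205, 191 and 194 TPM in the saline mice and 434, 412, 431 and 501 TPM in the ConA mice (log2 fold change 1.17, SE 0.11, adjusted p 3.7e-05). Both belong to the C/EBP family that drives acute-phase genes. Of 29 hepatocyte transcription factors 16 fell and 3 rose (median -0.59). The xenobiotic receptor CAR, encoded by Nr1i3, had 196, 196 and 195 TPM in the saline mice and 5.37, 5.02, 6.28 and 4.81 TPM in the ConA mice (log2 fold change -4.95, SE 0.13, adjusted p 3.38e-08). The falls also included Nr0b2, a repressor induced by bile acids (log2 fold change -2.65), the bile acid receptor Nr1h4 (-1.8), the pregnane X receptor Nr1i2 (-1.32) and Ppara, the regulator of fatty acid oxidation (-1.08). Hnf4a, the master regulator of hepatocyte identity, had 151, 163 and 164 TPM in saline and 239, 197, 141 and 171 TPM in ConA mice and was not called (log2 fold change 0.21, adjusted p 0.347).

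Genes of drug metabolism were lower almost throughout. Of 35 cytochrome P450 and phase I enzymes 31 fell and 1 rose (median -1.38), and of 41 phase II conjugation enzymes 32 fell and 3 rose (median -1.53). Their background shares of lower and higher calls are 31% and 22%. Cyp2e1, which oxidizes ethanol and acetaminophen, had 7564, 9416 and 9759 TPM in the saline mice and 2099, 2817, 1916 and 2694 TPM in the ConA mice (log2 fold change -1.91, SE 0.17, adjusted p 2.2e-05). Cyp2a5, a coumarin hydroxylase, had 1649, 2237 and 2257 TPM in the saline mice and 185, 256, 155 and 267 TPM in the ConA mice (log2 fold change -3.26, SE 0.21, adjusted p 3.79e-06). In each of these genes the highest ConA mouse lay below the lowest saline mouse. Cyp3a11 (-1.56) and Cyp1a2 (-1.79) fell too, as did the glucuronosyltransferase Ugt2b35 (-2.9), the thiopurine methyltransferase Tpmt (-2.67) and the glutathione transferase Gsta3 (-1.86). The P450 that rose was Cyp2b10 with 49.2, 53.9 and 50.3 TPM in the saline mice and 74.5, 90.5, 54.2 and 99.8 TPM in the ConA mice (log2 fold change 0.6, SE 0.2, adjusted p 0.0304), and 9 of the 15 alternative fits did not call it. Nnmt, nicotinamide N-methyltransferase, rose, with 476 to 592 TPM in saline and 992 to 1344 TPM in ConA mice. Families such as Cyp2c, Cyp2d and Ugt2b hold close paralogs, and their members are uncertain to that extent.

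Genes of bile acid synthesis and transport were also lower. Cyp7a1, the rate-limiting enzyme of bile acid synthesis, had 66.8, 70.7 and 72.5 TPM in the saline mice and 0.34, 0.13, 0.12 and 0.02 TPM in the ConA mice (log2 fold change -5.95, SE 0.14, adjusted p 3.16e-08), the largest fall of any listed gene. Cyp8b1, which sets the proportion of cholic acid, had 180.2, 164 and 159.7 TPM in the saline mice and 5.12, 4.72, 6.61 and 2.8 TPM in the ConA mice (log2 fold change -4.9, SE 0.22, adjusted p 5.05e-07). Of 14 genes of this pathway 11 fell and 0 rose. Cyp7b1 of the alternative pathway had 13.8 to 23.2 TPM in saline and 11.6 to 63.6 TPM in ConA mice and was not called (log2 fold change 0.25, adjusted p 0.705), its sign turning without ConA replicate 4. Of 23 transporters of bile acids and organic anions 19 fell (median -1.7). Slc10a1, the sodium-dependent importer of bile acids, had 674, 661 and 657 TPM in the saline mice and 93.2, 69.8, 84.99 and 58.7 TPM in the ConA mice (log2 fold change -3.12, SE 0.16, adjusted p 1.07e-06). The canalicular exporters Abcb11 (-1.7), Abcc2 (-2.01) and Abcb4 (-2.0) fell too. Slc51b, which exports bile acids to the blood, was the only transporter of the list that rose, with 0.73, 1.27 and 2.56 TPM in the saline mice and 21.1, 4.58, 14.7 and 3.74 TPM in the ConA mice (log2 fold change 2.02, SE 0.53, adjusted p 0.0099).

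**Figure D3:**
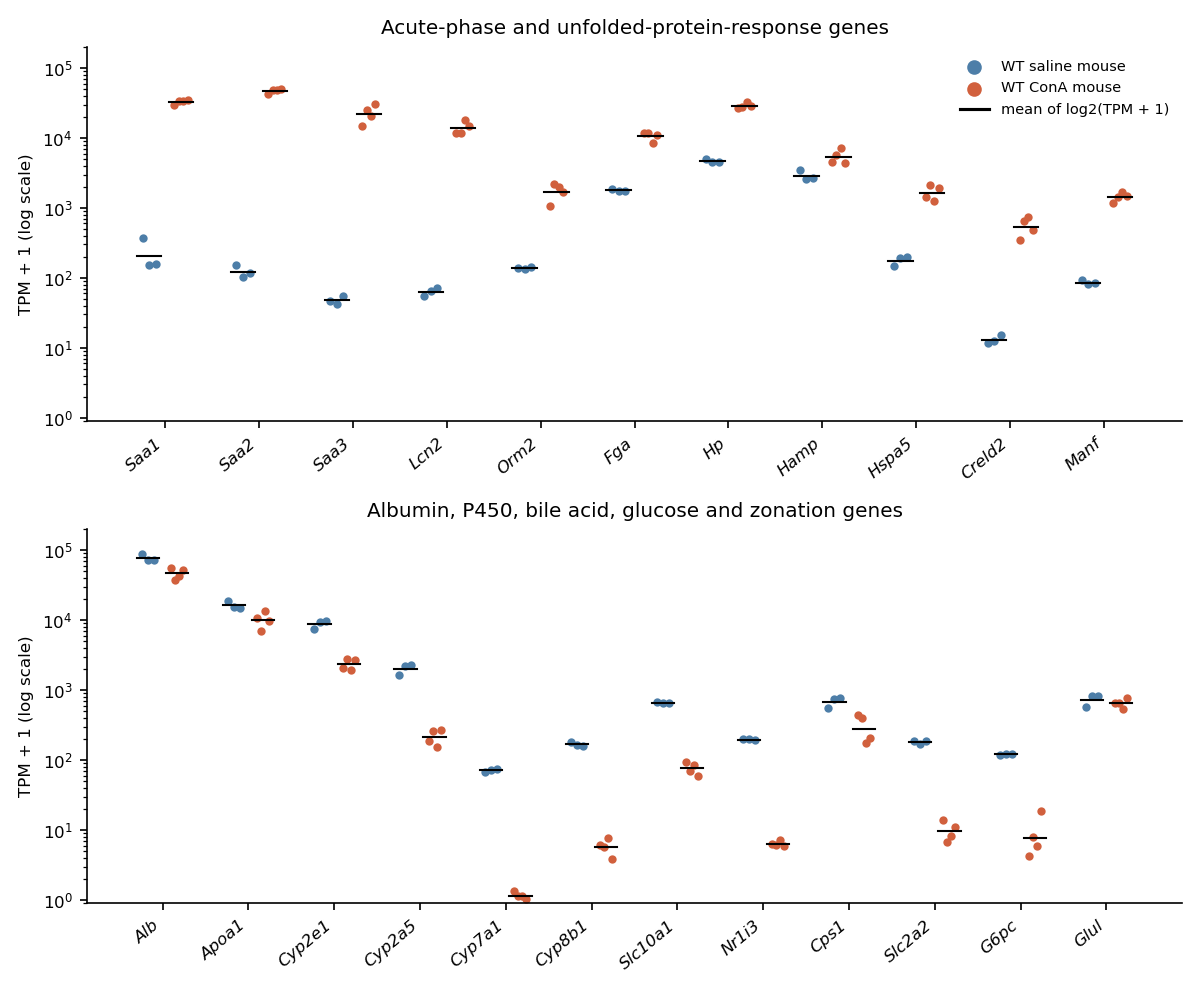
TPM + 1 (y axis, log scale) of named hepatocyte genes in each of the 3 WT saline and 4 WT ConA mice, with black lines at the mean of log2(TPM + 1). Acute-phase and unfolded-protein-response genes are above saline levels in each ConA mouse, and Cyp7a1 is at 66.8 to 72.5 TPM in saline and at most 0.34 TPM in ConA mice while Glul overlaps.

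Hepatocytes divide their work along the lobule, with pericentral cells near the central vein and periportal cells near the portal tract. Genes of both zones fell, 22 of 27 pericentral (median -1.42, 5 of the 27 having passed the filter only through the saline mice) and 16 of 26 periportal (median -0.97). Whether the zones differed was not tested. Glutamine synthetase (Glul), the classical marker of the innermost pericentral cells, had 578, 816 and 811 TPM in the saline mice and 648, 659, 545 and 774 TPM in the ConA mice and was not called (log2 fold change -0.16, SE 0.17, adjusted p 0.466). Notum, a Wnt inhibitor of the same cells, had 35.5, 42.4 and 38.8 TPM in the saline mice and 2.86, 2.86, 2.63 and 3.21 TPM in the ConA mice (log2 fold change -3.36, SE 0.13, adjusted p 3.07e-07). The Wnt targets Axin2 (-0.73), Nkd1 (-1.71) and Lgr5 (-0.77) fell. Periportal Cps1, which starts the urea cycle, had 545, 738 and 772 TPM in the saline mice and 434, 399, 173 and 203 TPM in the ConA mice (log2 fold change -1.27, SE 0.32, adjusted p 0.00865), and ConA replicates 3 and 4 were the lowest. Of 50 genes of the urea cycle and amino acid catabolism 37 fell and 2 rose. Cth, which makes cysteine from cystathionine, fell (-3.19), whereas Arg1, the arginase of the cycle, was not called (log2 fold change -0.37, adjusted p 0.207) unless ConA replicate 1 was left out (adjusted p 0.0388).

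Genes of mitochondrial energy metabolism were lower. Of 37 genes of fatty acid oxidation and ketogenesis 34 fell (median -1.07), and of 71 oxidative phosphorylation subunits 65 fell and 0 rose (median -0.63). Acsl1, which activates long-chain fatty acids, had 214, 223 and 229 TPM in the saline mice and 25.97, 29.5, 17.04 and 30.2 TPM in the ConA mice (log2 fold change -3.1, SE 0.19, adjusted p 2.84e-06). Ndufa6 of respiratory complex I, the largest fall among the subunits, had 558, 535 and 561 TPM in the saline mice and 217, 204, 244 and 195 TPM in the ConA mice (log2 fold change -1.36, SE 0.12, adjusted p 1.83e-05). In libraries rescaled by their median ratio 47 of the 71 subunits were still called lower, with a median of -0.53.

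Of 36 genes of gluconeogenesis, glycolysis and glycogen 15 rose and 15 fell. Slc2a2, the hepatocyte glucose transporter, had 185, 168 and 184 TPM in the saline mice and 12.7, 5.64, 7.29 and 10.01 TPM in the ConA mice (log2 fold change -4.24, SE 0.23, adjusted p 1.27e-06). G6pc, the glucose-6-phosphatase that releases glucose to the blood, had 117, 122 and 121 TPM in the saline mice and 3.22, 6.85, 4.86 and 17.4 TPM in the ConA mice (log2 fold change -3.97, SE 0.41, adjusted p 5.21e-05), with the highest value in replicate 4. Pck1 (-2.21), the liver pyruvate kinase Pklr (-1.86) and glycogen synthase Gys2 (-2.75) also fell. Pkm, the pyruvate kinase of non-hepatic cells, had 6.08, 3.38 and 3.87 TPM in the saline mice and 87.1, 75.96, 86.01 and 94.4 TPM in the ConA mice (log2 fold change 4.02, SE 0.18, adjusted p 5.31e-07). Pfkfb3 (4.01), which makes an activator of phosphofructokinase, the liver-type phosphofructokinase Pfkl (2.55), Ldha (2.06), Aldoa (1.88), the transporter Slc2a1 (1.82) and the hexokinases Hk1 (1.8) and Hk2 (1.29) rose. Of 23 genes of the hypoxia response, several of which are those glycolytic genes, 18 rose (median 1.69), and 3 of the 23 passed the filter only through the ConA mice. In whole-liver RNA, more or fewer cells of a type and more or less RNA per cell cannot be told apart.

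Among lipid genes, 17 of 27 lipogenesis and triglyceride genes fell, with 11 when saline replicates 2 and 3 were averaged or replicate 3 was left out. The desaturase Fads2 had 168, 232 and 222 TPM in the saline mice and 35.2, 24.4, 23.7 and 21.5 TPM in the ConA mice (log2 fold change -2.95, SE 0.19, adjusted p 3.52e-06), and the lipogenic factors Srebf1 (-1.71) and Mlxipl (-1.39) fell. Plin2, which coats lipid droplets, rose (log2 fold change 1.08, SE 0.23, adjusted p 0.00328). Fasn, the fatty acid synthase, was not called (adjusted p 0.609). Of 25 genes of cholesterol synthesis and the LDL receptor, 9 fell and 6 rose, near the shares of all tested genes, and without saline replicate 1 it was 11 and 3. Sqle, an early committed step of sterol synthesis, had 29.2, 42.7 and 45.5 TPM in the saline mice and 157, 115, 92.9 and 108 TPM in the ConA mice (log2 fold change 1.57, SE 0.21, adjusted p 2.42e-04), and the LDL receptor fell (-1.17). The apolipoproteins held 12.5% to 12.9% of all TPM in saline and 5.68% to 8.47% in ConA mice. Apoa1 of high-density lipoprotein had 19030, 15371 and 15029 TPM in the saline mice and 10732, 6914, 13723 and 9818 TPM in the ConA mice (log2 fold change -0.71, SE 0.22, adjusted p 0.0212), and it was not called in rescaled libraries (adjusted p 0.109), with no filter or without saline replicate 1. Abca1, the cholesterol exporter, rose (log2 fold change 2.32, SE 0.29, adjusted p 1.41e-04).

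Of 19 genes of the growth hormone receptor and IGF axis 9 fell and 5 rose, against 31% and 22% of all tested genes. Without saline replicate 2 it was 6 and 6. Igf1 had 162, 145 and 156 TPM in the saline mice and 104, 69.96, 86.4 and 101 TPM in the ConA mice (log2 fold change -0.78, SE 0.15, adjusted p 0.00225), and the growth hormone receptor Ghr (-1.47) and the prolactin receptor Prlr (-1.66) fell. Igfbp1, a stress-induced binding protein of IGF, had 53.5, 83.4 and 84.4 TPM in the saline mice and 571, 861, 536 and 1126 TPM in the ConA mice (log2 fold change 3.33, SE 0.28, adjusted p 1.41e-05). Keg1, an acyltransferase listed among the male-biased genes, fell (log2 fold change -4.56). Of that list of 23, 11 fell and 1 rose, and saline replicate 1 was higher than the other saline mice, as given above. Cux2, a factor of female-type livers, had 14.9, 14.7 and 14.4 TPM in the saline mice and 0.07, 0.11, 0.09 and 0.05 TPM in the ConA mice (log2 fold change -3.86, SE 0.12, adjusted p 9.27e-08). Of 18 circadian clock genes 8 fell and 4 rose, against 31% and 22% of all tested genes. Dbp, an output gene of the clock, had 203, 171 and 169 TPM in the saline mice and 10.5, 9.55, 9.46 and 2.57 TPM in the ConA mice (log2 fold change -4.47, SE 0.37, adjusted p 1.44e-05), with replicate 4 the lowest. Nfil3, which opposes Dbp at the same sites, had 9.06, 7.46 and 7.15 TPM in the saline mice and 39.6, 34.5, 27.6 and 43.9 TPM in the ConA mice (log2 fold change 2.06, SE 0.18, adjusted p 1.71e-05). Clock genes depend on the hour of collection, which the labels do not give for either group.

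Of 31 genes of the unfolded protein response, the reaction of the endoplasmic reticulum to a load of secreted proteins, 27 rose and 0 fell (median 1.66). Creld2, a chaperone-like protein of that compartment, had 10.7, 11.6 and 14.4 TPM in the saline mice and 347, 659.6, 739.9 and 487 TPM in the ConA mice (log2 fold change 5.35, SE 0.25, adjusted p 6.52e-07). Manf, a secreted ER stress factor, had 91.2, 79.6 and 82.6 TPM in the saline mice and 1160, 1433, 1669 and 1495 TPM in the ConA mice (log2 fold change 4.06, SE 0.14, adjusted p 1.62e-07). The chaperone Hspa5 (BiP) rose, with 146 to 195 TPM in saline and 1243 to 2095 TPM in ConA mice (log2 fold change 3.22, SE 0.2, adjusted p 2.97e-06). The cofactors Hyou1 (3.84) and Sdf2l1 (3.75) and the transcription factors Atf3 (4.04), Ddit3 (2.58) and Xbp1 (1.79) were called as well. Of 15 heat shock chaperones 5 were called higher and 0 lower, against 22% and 31% of all tested genes, with a list median of -0.01. Hspa1b had 3.59, 3.68 and 4.05 TPM in the saline mice and 23.7, 49.3, 16.6 and 9.24 TPM in the ConA mice (log2 fold change 2.19, SE 0.44, adjusted p 0.00241).

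Of 20 p53 targets and growth arrest genes 17 rose and 1 fell, and 5 of the 20 passed the filter only through the ConA mice. Cdkn1a, which encodes the cell cycle inhibitor p21, had 0.69, 0.9 and 1.55 TPM in the saline mice and 212, 143, 168 and 152 TPM in the ConA mice (log2 fold change 6.38, SE 0.19, adjusted p 7.39e-08). Btg2, an antiproliferative factor, had 4.17, 4.11 and 4.61 TPM in the saline mice and 154, 112, 86.9 and 125 TPM in the ConA mice (log2 fold change 4.48, SE 0.19, adjusted p 3.71e-07). Neither gene overlapped between the groups. Fas, the death receptor (2.04), and Mdm2, which degrades p53 (1.04), rose. Of 33 genes of apoptosis and necroptosis 17 rose and 4 fell, 4 of the 33 having passed only through the ConA mice. Zbp1, a sensor of Z-form nucleic acids, had 7.19, 7.81 and 9.02 TPM in the saline mice and 179.7, 181, 133 and 134 TPM in the ConA mice (log2 fold change 4.12, SE 0.16, adjusted p 2.95e-07), and Mlkl, the executor of necroptosis, had 3.29, 2.8 and 3.8 TPM in the saline mice and 46.3, 41.5, 23.5 and 24.4 TPM in the ConA mice (log2 fold change 2.97, SE 0.25, adjusted p 1.6e-05). Hmox1, heme oxygenase, had 10.9, 6.7 and 5.32 TPM in the saline mice and 181, 177, 142 and 231 TPM in the ConA mice (log2 fold change 4.44, SE 0.23, adjusted p 1.07e-06), whereas its fellow antioxidant genes Gclm (-1.79), Nqo1 (-1.75) and catalase Cat (-2.05) fell. The 20 genes of the NRF2 list gave 6 higher and 8 lower, against 22% and 31% of all tested genes. The proliferation markers Mki67 and Top2a were below the filter, with at most 0.9 and 1.35 TPM in any of the 7 libraries.

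The metallothioneins Mt1 (2.44) and Mt2 (2.35) and the zinc importer Slc39a14 (2.27) rose. Slc40a1, the iron exporter ferroportin, had 73.6, 50.6 and 54.3 TPM in the saline mice and 12.4, 10.3, 4.79 and 8.75 TPM in the ConA mice (log2 fold change -2.64, SE 0.27, adjusted p 5.01e-05), and Hjv, a co-receptor upstream of hepcidin, had 52.9, 59.2 and 59.05 TPM in the saline mice and 5.56, 7.96, 5.76 and 6.89 TPM in the ConA mice (log2 fold change -2.95, SE 0.15, adjusted p 9.29e-07). Hepcidin transcripts were higher, and those of the upstream co-receptor Hjv and of ferroportin, the transporter that hepcidin degrades, were lower.

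The interferon gamma response gave the highest median of all lists. Of 35 tested genes 33 rose and 1 fell (median 3.91), and 3 of the 35 passed the filter only through the ConA mice. Cxcl9, a chemokine that draws activated T cells, had 10.3, 7.03 and 8.77 TPM in the saline mice and 4079.9, 3910.1, 2488 and 2487 TPM in the ConA mice (log2 fold change 8.36, SE 0.22, adjusted p 3.38e-08). Gbp2, a guanylate-binding protein that attacks the membranes of intracellular parasites, had 3.92, 3.09 and 3.24 TPM in the saline mice and 1084, 1141, 464 and 583 TPM in the ConA mice (log2 fold change 7.43, SE 0.3, adjusted p 3.58e-07). Replicates 1 and 2 were about level and above replicates 3 and 4 in both genes. Cxcl10 (6.82), the immunity-related GTPases Tgtp1 (7.18) and Ifi47 (4.96), the ubiquitin-like modifier Ubd (5.99) and inducible nitric oxide synthase Nos2 (5.15) followed. The transcription factors Irf1 (3.42) and Irf8 (4.64) rose as well. The Gbp and Tgtp genes have close paralogs.

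Transcripts of the cytokines named next were scarce at 8 h, and what induced the lists above was not tested. Ifng had 0.14, 0 and 0.07 TPM in the saline mice and 3.86, 2.46, 1.63 and 1.01 TPM in the ConA mice (log2 fold change 1.52, SE 0.27, adjusted p 0.00112), and Tnf had 0.05, 0 and 0 TPM in the saline mice and 5.39, 4.02, 5.64 and 3.37 TPM in the ConA mice (log2 fold change 2.44, SE 0.17, adjusted p 5.76e-06). Their ConA and saline mice did not overlap. Fold changes at such levels depend on the added 1 TPM. Il6 was listed at 0, 0 and 0 TPM in the saline and 0.21, 0.07, 0.07 and 0.21 TPM in the ConA mice, Il2 and Il4 at no more than 0.17 and 0.58 TPM, and Il17a and Il22 at 0 in the 7 libraries. All these were below the filter and not tested. Of 22 T cell cytokines listed, 19 were in the tables and 6 were tested, 3 of them only through the ConA mice.

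Type I interferon-stimulated genes, some of which also answer to interferon gamma, were higher in 26 of 31 cases and lower in 0 (median 1.26). Isg15, a ubiquitin-like antiviral protein, had 34.4, 31.6 and 37.1 TPM in the saline mice and 664, 757, 644 and 545 TPM in the ConA mice (log2 fold change 4.2, SE 0.14, adjusted p 1.1e-07). Ifit1 (1.47), Irf7 (2.34) and Oasl2 (3.01) rose too. The 2 lists were not tested against each other.

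For MHC class I, which shows peptides to CD8 T cells, 16 of 24 genes rose and 2 fell. The peptide transporter Tap1 had 10.3, 10.1 and 9.78 TPM in the saline mice and 138, 123, 90.5 and 87.6 TPM in the ConA mice (log2 fold change 3.29, SE 0.18, adjusted p 1.22e-06), and the immunoproteasome subunit Psmb9 had 38.5, 27.1 and 28.1 TPM in the saline mice and 325, 314, 307 and 192 TPM in the ConA mice (log2 fold change 3.13, SE 0.21, adjusted p 4.25e-06). The falls were H2-Q10 and B2m, and neither was called in rescaled libraries. B2m, the common light chain, had 5489, 4841 and 4689 TPM in the saline mice and 3903, 3316, 3612 and 3450.3 TPM in the ConA mice (log2 fold change -0.49, SE 0.12, adjusted p 0.00739) with an adjusted p of 0.0854 after rescaling. For MHC class II, which serves CD4 T cells, 5 of 9 tested genes fell and 1, Cd40, rose. H2-Aa had 32.8, 29.9 and 33.8 TPM in the saline mice and 14.1, 8.02, 5.79 and 8.33 TPM in the ConA mice (log2 fold change -1.78, SE 0.24, adjusted p 2.48e-04). H2-Eb1 had 16.8, 15.8 and 15.7 TPM in the saline mice and 7.44, 3.82, 2.73 and 4.59 TPM in the ConA mice (log2 fold change -1.66, SE 0.25, adjusted p 4.36e-04). Both genes were highest among the ConA mice in replicate 1. The invariant chain Cd74 fell (log2 fold change -0.93), a call lost without saline replicate 1 (adjusted p 0.0511).

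The promoters of Irf1 and Gbp2 are shown as examples of the interferon list. The STAT pattern was found in 11 of 26 promoters of that list (42.3%) against 6.15% of tested promoters, and the ISRE pattern in 13 of 26 (50%) against 2.86%. Over all called genes the ISRE pattern was in 4.51% of promoters called higher and 2.16% of those called lower. In the list of IL-6 family signaling and STAT3 targets the STAT pattern was found in 2 of 23 promoters (8.7%), near the share of all tested promoters. Socs3, a feedback inhibitor of cytokine receptors and a classical STAT3 target, had 4.29, 3.37 and 4.43 TPM in the saline mice and 71.8, 50.2, 42.5 and 36.2 TPM in the ConA mice (log2 fold change 3.31, SE 0.22, adjusted p 4.38e-06). Capitals mark the STAT match in Irf1 (chr11:53769814-53770013, plus strand) and Socs3 (chr11:117969367-117969566, minus strand) and the ISRE match in Gbp2 (chr3:142620463-142620662, plus strand), all in chromosomes of GRCm38.p6 and written 5′ to 3′ up to the base before the start. The ISRE match of Gbp2 reads on the strand opposite to the gene and begins 59 bases upstream of its start.
Irf1: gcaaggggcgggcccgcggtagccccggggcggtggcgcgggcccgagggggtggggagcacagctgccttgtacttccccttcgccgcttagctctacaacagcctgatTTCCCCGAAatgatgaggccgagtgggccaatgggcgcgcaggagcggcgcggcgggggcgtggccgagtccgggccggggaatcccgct
Socs3: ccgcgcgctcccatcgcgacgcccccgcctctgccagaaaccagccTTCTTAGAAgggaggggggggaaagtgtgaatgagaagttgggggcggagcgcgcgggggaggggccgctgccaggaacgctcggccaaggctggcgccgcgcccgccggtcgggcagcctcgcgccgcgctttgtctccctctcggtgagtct
Gbp2: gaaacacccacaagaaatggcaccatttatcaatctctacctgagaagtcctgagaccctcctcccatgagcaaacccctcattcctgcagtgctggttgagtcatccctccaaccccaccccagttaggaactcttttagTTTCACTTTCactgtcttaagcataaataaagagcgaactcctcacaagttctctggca

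Of 31 tested NF-kB target and feedback genes, a list for the inflammatory factor downstream of the tumor necrosis factor receptor, 30 rose and 0 fell (median 2.55), and 6 of the 31 passed the filter only through the ConA mice. Their share of all TPM was 0.0416% to 0.0439% in saline and 2.95% to 4.8% in ConA mice, most of the latter being Saa3 and Lcn2. The subunits Relb (3.38) and Nfkb2 (3.16) and the inhibitors Nfkbia (1.36) and Tnfaip3 (3.94) rose together. Of 26 genes of IL-6 family signaling and STAT3 targets 18 rose and 3 fell. The receptor Osmr (2.12) and Stat3 (1.81) rose and Lifr (-1.57) fell. Socs1, which restrains interferon gamma signaling, had 0.76, 0.48 and 0.82 TPM in the saline mice and 149.97, 124, 120.4 and 65.5 TPM in the ConA mice (log2 fold change 6.05, SE 0.26, adjusted p 3.97e-07). Socs1 passed the filter only through the ConA mice, so its call restates in part how it passed. Cd274, the checkpoint ligand PD-L1, had 1.22, 1.02 and 0.94 TPM in the saline mice and 47.3, 52.9, 20.3 and 20.1 TPM in the ConA mice (log2 fold change 4.0, SE 0.34, adjusted p 1.71e-05). In Cd274 replicates 3 and 4 were again below replicates 1 and 2.

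Several chemokines for myeloid cells rose. Cxcl1, a ligand of the neutrophil receptor Cxcr2, had 16.1, 6.88 and 7.72 TPM in the saline mice and 453, 361, 356 and 447 TPM in the ConA mice (log2 fold change 5.25, SE 0.25, adjusted p 7.53e-07). Cxcl2, another such ligand, had 0.08, 0.08 and 0.31 TPM in the saline mice and 36.6, 98.8, 66.5 and 208 TPM in the ConA mice (log2 fold change 6.21, SE 0.47, adjusted p 8.87e-06), with replicate 4 highest. Ccl2, which recruits monocytes, had 0.64, 0.11 and 0.11 TPM in the saline mice and 108, 146, 78.5 and 129.9 TPM in the ConA mice (log2 fold change 6.49, SE 0.24, adjusted p 1.78e-07). None of the 3 genes overlapped between the groups, although Cxcl2 and Ccl2 passed the filter only through the ConA mice. Ccl7 (3.97) and the eosinophil attractant Ccl11 (3.34) rose, while Cxcl12, which retains leukocytes in niches, had 150.4, 169.96 and 170.1 TPM in the saline mice and 30.02, 32.2, 18.5 and 22.9 TPM in the ConA mice (log2 fold change -2.64, SE 0.19, adjusted p 6.69e-06). Of 19 tested CC and other chemokines 13 rose and 3 fell, 9 of the 19 having passed the filter only through the ConA mice. The promoters of Cxcl1 and Cxcl2 carry the NF-kB pattern at 2 places each, marked in capitals (chr5:90891045-90891244 and chr5:90903699-90903898, both plus strand). It was found in 28% of the 25 NF-kB list promoters and 1.45% of all tested ones. Over all called genes it was in 2.44% of promoters called higher and 1.26% of those called lower.
Cxcl1: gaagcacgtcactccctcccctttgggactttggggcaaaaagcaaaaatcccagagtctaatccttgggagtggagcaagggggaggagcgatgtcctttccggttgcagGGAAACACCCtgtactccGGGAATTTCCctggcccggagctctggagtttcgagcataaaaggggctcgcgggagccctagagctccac
Cxcl2: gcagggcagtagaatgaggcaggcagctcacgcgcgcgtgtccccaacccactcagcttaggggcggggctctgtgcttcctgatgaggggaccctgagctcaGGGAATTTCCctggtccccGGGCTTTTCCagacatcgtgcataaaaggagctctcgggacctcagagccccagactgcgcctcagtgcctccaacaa

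Markers of neutrophils were mostly near 0 in the saline mice. Of 31 genes 27 were tested, 16 of them only through the ConA mice, so the 24 calls, all higher, restate in part how they passed. S100a9, a subunit of the granulocyte protein calprotectin, had 3.39, 0.85 and 1.02 TPM in the saline mice and 265, 156, 167 and 226 TPM in the ConA mice (log2 fold change 6.3, SE 0.31, adjusted p 8.31e-07). Its partner S100a8 (5.78) and the granulocyte gene Retnlg (4.26) rose. The granule genes Mpo and Elane of immature neutrophils did not exceed 0.08 and 0.24 TPM in any library, and the surface marker Ly6g had 0.57, 4.85 and 5.04 TPM in the saline mice and 1.64, 0.18, 0.49 and 0.88 TPM in the ConA mice and was not called, except without saline replicate 1 (log2 fold change -1.79, adjusted p 0.0017) and in the fit of all 14 libraries. Lcn2 and Cd14, which stand in leukocyte lists, are also made by hepatocytes in the acute phase.

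Monocyte and inflammatory macrophage genes were called higher in 17 of 28 cases and lower in 2 (median 0.97). In this list 6 genes passed only through the ConA mice. Chil3 (3.86), Ly6c2 (2.1) and Il1rn, the antagonist of the IL-1 receptor (5.0), rose. The general macrophage gene Cd68 had 5.85, 4.2 and 4.03 TPM in the saline mice and 6.0, 2.65, 3.46 and 2.61 TPM in the ConA mice and was not called, except without ConA replicate 1 (log2 fold change -0.54, adjusted p 0.0397). Genes listed for Kupffer cells, the resident macrophages of the sinusoids, were lower in 14 of 22 cases and higher in 2 (median -1.07), 2 of the 22 having passed the filter only through the saline mice. The largest rise of the list had a log2 fold change of 2.87, and Il18bp was also among the rises. Some members, such as C6 and Slc40a1, stand in other lists too. The 25 listed genes held 0.04% to 0.0518% of all TPM in saline and 0.0354% to 0.0416% in ConA mice. Clec4f, a lectin found only on these cells in mice, had 40.8, 25.6 and 26.5 TPM in the saline mice and 7.98, 1.41, 1.07 and 1.13 TPM in the ConA mice (log2 fold change -3.32, SE 0.48, adjusted p 3.65e-04). Cd5l, an apoptosis inhibitor of macrophages, had 38.3, 19.4 and 20.8 TPM in the saline mice and 7.58, 1.28, 1.09 and 1.89 TPM in the ConA mice (log2 fold change -2.98, SE 0.47, adjusted p 5.98e-04). In both genes replicate 1 kept several times the level of the other 3 ConA mice and the groups still did not overlap. Vsig4, a complement receptor (-2.81), and Timd4, which binds dying cells (-1.13), fell. Without ConA replicate 1 the list gave 15 genes lower, and without saline replicate 1, which had the highest mean of the list, 12.

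Lymphocyte genes were sparse. Of 24 T cell markers with a value 3 passed the filter, and Cd3e had 0.16 to 0.23 TPM in saline and 0.17 to 0.6 TPM in ConA mice. Cd8b1 was called higher (0.65, 0.56 and 0.25 against 1.1, 2.19, 1.29 and 2.7 TPM, log2 fold change 0.89, SE 0.22, adjusted p 0.00687). It passed the filter only through the ConA mice, so the call restates in part how it passed. Zap70 (-1.12) and Tcf7 (-0.73) fell, and Tcf7 also stands in the pericentral list. Of 21 NK and cytotoxic genes 5 were tested, 3 of them only through the ConA mice. The granzyme Gzmb had 0.61, 0.05 and 0.22 TPM in the saline mice and 9.93, 4.28, 2.88 and 4.54 TPM in the ConA mice (log2 fold change 2.22, SE 0.32, adjusted p 3.58e-04), highest in replicate 1. Xcl1, a chemokine of activated lymphocytes, was listed at 0 in each saline mouse and at 7.25, 3.3, 3.14 and 2.5 TPM in the ConA mice. B cell genes gave 2 tested members and 0 calls.

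**Figure D4:**
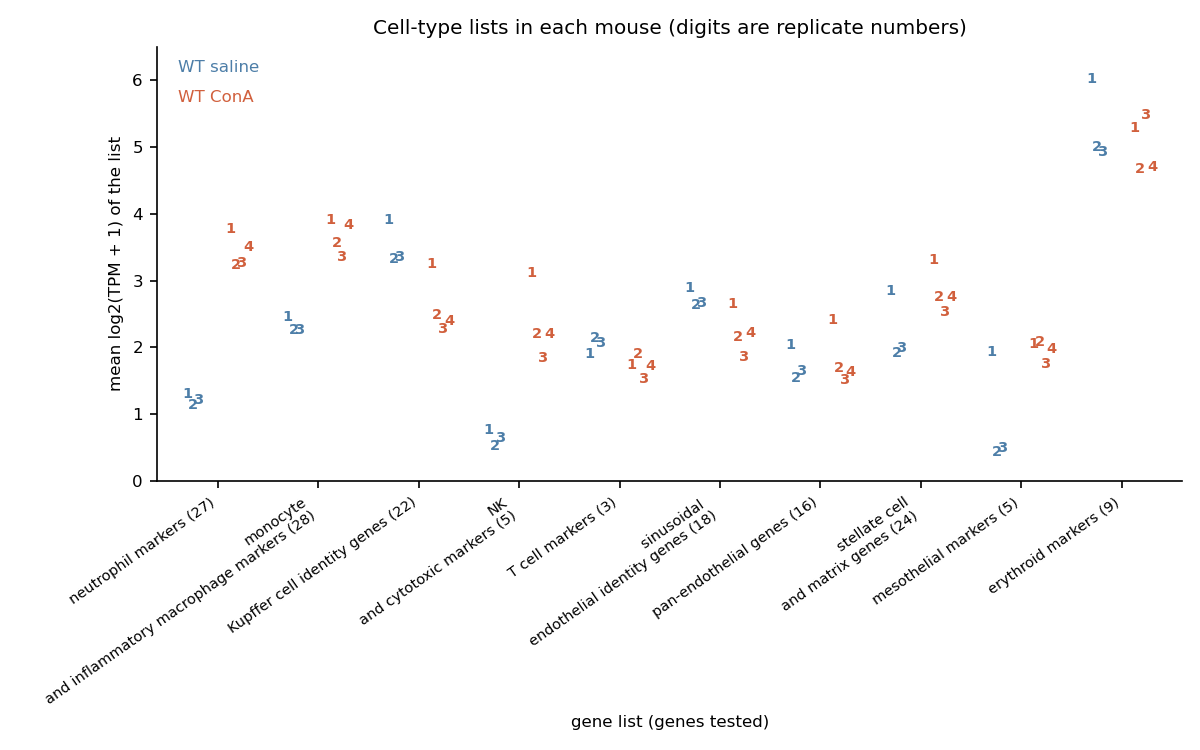
Mean log2(TPM + 1) over the tested genes of 10 cell-type lists (y axis) in each of the 7 mice, with digits for replicate numbers and colours for groups. Neutrophil genes are at 1.13 to 1.29 in saline and 3.24 to 3.77 in ConA mice, Kupffer genes are lower after ConA with replicate 1 the highest of the 4, and mesothelial genes in saline replicate 1 lie with the ConA mice.

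Of 34 sinusoidal endothelial identity genes 18 were tested, 8 of which fell and 1 rose (median -0.43). Of the 18, 2 had passed the filter only through the saline mice and 1 only through the ConA mice. Stab2, a scavenger receptor of these cells, had 4.07, 3.52 and 2.96 TPM in the saline mice and 6.06, 2.92, 4.63 and 4.55 TPM in the ConA mice and was not called (log2 fold change 0.27, SE 0.21, adjusted p 0.295), nor was Stab1 (-0.25). Dnase1l3, a secreted nuclease, had 3.37, 2.6 and 2.2 TPM in the saline mice and 5.32, 1.8, 1.64 and 1.56 TPM in the ConA mice and was called, lower, only without ConA replicate 1 (adjusted p 0.0416). Clec4g, a sinusoidal lectin, had 12.3, 6.2 and 7.18 TPM in the saline mice and 5.01, 1.04, 1.54 and 1.12 TPM in the ConA mice (log2 fold change -1.69, SE 0.38, adjusted p 0.00458). Lyve1, a hyaluronan receptor, was the rise, with 0.82, 0.41 and 0.66 TPM in the saline mice and 9.09, 3.17, 1.95 and 2.69 TPM in the ConA mice (log2 fold change 1.51, SE 0.37, adjusted p 0.00674). Lyve1 was also the gene that passed only through the ConA mice, so its call restates in part how it passed. The levels of sinusoidal genes were highest among the ConA mice in replicate 1, the list means of the 4 mice being 2.65, 2.15, 1.86 and 2.22. Of 16 tested pan-endothelial genes 5 rose and 3 fell, against 22% and 31% of all tested genes. Of them 3 rose with any 1 saline mouse left out or with saline replicates 2 and 3 averaged. Of the 16, 1 had passed only through the ConA mice and 1 only through the saline mice. Esam, of endothelial junctions, rose (1.53), and Kdr, the main VEGF receptor, fell (-0.92). The junction protein Pecam1 had 2.28, 1.53 and 1.67 TPM in the saline mice and 8.03, 3.8, 2.92 and 2.73 TPM in the ConA mice (log2 fold change 0.84, SE 0.29, adjusted p 0.0361), and its call was lost without ConA replicate 2 or any 1 saline replicate (adjusted p 0.0528 to 0.113).

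Of 22 genes of endothelial activation and leukocyte adhesion 15 rose and 1 fell (median 0.78), 6 of the 22 having passed only through the ConA mice. Icam1, the integrin ligand that arrests leukocytes, had 6.95, 5.78 and 6.07 TPM in the saline mice and 194, 237, 194 and 225 TPM in the ConA mice (log2 fold change 4.88, SE 0.13, adjusted p 3.89e-08). Vcam1, another such ligand, had 2.07, 1.88 and 2.02 TPM in the saline mice and 18.8, 13.5, 5.13 and 8.36 TPM in the ConA mice (log2 fold change 1.92, SE 0.34, adjusted p 0.00132). Selp, the P-selectin of platelets and endothelium, had 2.62, 2.33 and 2.63 TPM in the saline mice and 1.6, 1.48, 0.79 and 0.74 TPM in the ConA mice (log2 fold change -0.74, SE 0.18, adjusted p 0.00688), a small fall. E-selectin (Sele) was below the filter at 0.02, 0 and 0 TPM in the saline and 1.31, 0.78, 0.26 and 0.72 TPM in the ConA mice, and so was Vwf at 0.48 to 1.01 and 0.32 to 1.26 TPM. Icam1 is also made by hepatocytes, and Nos2 of the same list by several cell types.

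Several genes that set clotting at the vessel wall rose. Plaur, the urokinase receptor, had 0.17, 0.11 and 0.28 TPM in the saline mice and 12.6, 8.42, 6.16 and 6.32 TPM in the ConA mice (log2 fold change 2.93, SE 0.23, adjusted p 9.55e-06). Procr, the receptor of protein C (2.78), and Anxa2, which assembles plasmin (2.64), rose, and Thbd, or thrombomodulin, had 0.26, 0.22 and 0.22 TPM in the saline mice and 1.83, 1.18, 0.71 and 2.07 TPM in the ConA mice (log2 fold change 0.95, SE 0.2, adjusted p 0.00328). Tissue factor F3 had 3.53, 3.67 and 3.92 TPM in the saline mice and 3.3, 2.75, 0.96 and 1.46 TPM in the ConA mice and was not called (log2 fold change -0.66, adjusted p 0.0564), but it was called lower in rescaled libraries (adjusted p 0.0455) and without ConA replicate 1 or 2. Of the 13 tested genes of the list 7 rose and 0 fell, and 5 of the 13 passed only through the ConA mice. In the coagulation factors that hepatocytes secrete, 8 of 29 rose and 14 fell, against 22% and 31% of all tested genes. The rises were led by A2m, a broad protease inhibitor, with 0.26, 0.02 and 0.06 TPM in the saline mice and 66.5, 53.1, 50.8 and 114 TPM in the ConA mice (log2 fold change 5.95, SE 0.27, adjusted p 5.42e-07), and by the fibrinogens. A2m passed the filter only through the ConA mice, so its call restates in part how it passed. Klkb1, plasma prekallikrein, had 113, 104 and 108 TPM in the saline mice and 14.6, 8.85, 9.75 and 12.8 TPM in the ConA mice (log2 fold change -3.16, SE 0.17, adjusted p 1.5e-06). Antithrombin Serpinc1 (-0.95), protein C (Proc, -1.26), factor V (F5, -1.22) and heparin cofactor II (Serpind1, -2.19) fell, while prothrombin F2 was not called (log2 fold change -0.11). The share of TPM of these 29 genes was 2.67% to 2.68% in saline and 4.99% to 6.14% in ConA mice, the fibrinogens included.

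Of 23 genes of vessel tone 7 were higher and 8 lower, near the 22% and 31% of all tested genes, and 4 had passed only through the ConA mice and 2 only through the saline mice. Adm, the vasodilator adrenomedullin, had 0.84, 0.48 and 0.66 TPM in the saline mice and 35.1, 53.2, 38.1 and 178 TPM in the ConA mice (log2 fold change 5.2, SE 0.48, adjusted p 2.7e-05), and replicate 4 was the highest. Agtr1a, the angiotensin II receptor, had 41.3, 44.6 and 47.5 TPM in the saline mice and 4.94, 5.28, 3.37 and 5.25 TPM in the ConA mice (log2 fold change -3.01, SE 0.16, adjusted p 1.3e-06). Ece1, which activates endothelin, had 54.8, 74.7 and 71.8 TPM in the saline mice and 22, 19.1, 18.6 and 16.9 TPM in the ConA mice (log2 fold change -1.75, SE 0.15, adjusted p 1.85e-05). Vegfa, a growth factor of endothelium, rose (log2 fold change 0.76). Of 24 tested stellate cell and matrix genes 7 rose and 2 fell, against 22% and 31% of all tested genes. Without saline replicate 1, which had the highest saline mean of this list, 12 rose. Of the 46 listed genes the others were below the filter and not tested. They included Lrat at 0.54 to 1.72 TPM in saline and 0.12 to 0.22 TPM in ConA mice. Col1a1 had 0.29 to 1.64 and 0.33 to 0.95 TPM, Acta2 0.71 to 2.36 and 0.44 to 0.93 TPM, and Tnc 0 to 0.09 and 0.11 to 0.3 TPM. Col4a1, the basement membrane collagen, had 2.4, 0.83 and 0.83 TPM in the saline mice and 49.9, 47.01, 38.1 and 49.01 TPM in the ConA mice (log2 fold change 4.38, SE 0.23, adjusted p 1.13e-06). Timp1, an inhibitor of matrix proteases, had 0, 0 and 0.1 TPM in the saline mice and 17.2, 12.1, 18.9 and 15.8 TPM in the ConA mice (log2 fold change 4.03, SE 0.17, adjusted p 3.71e-07). Timp1 passed the filter only through the ConA mice, so its call restates in part how it passed.

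**Figure D5:**
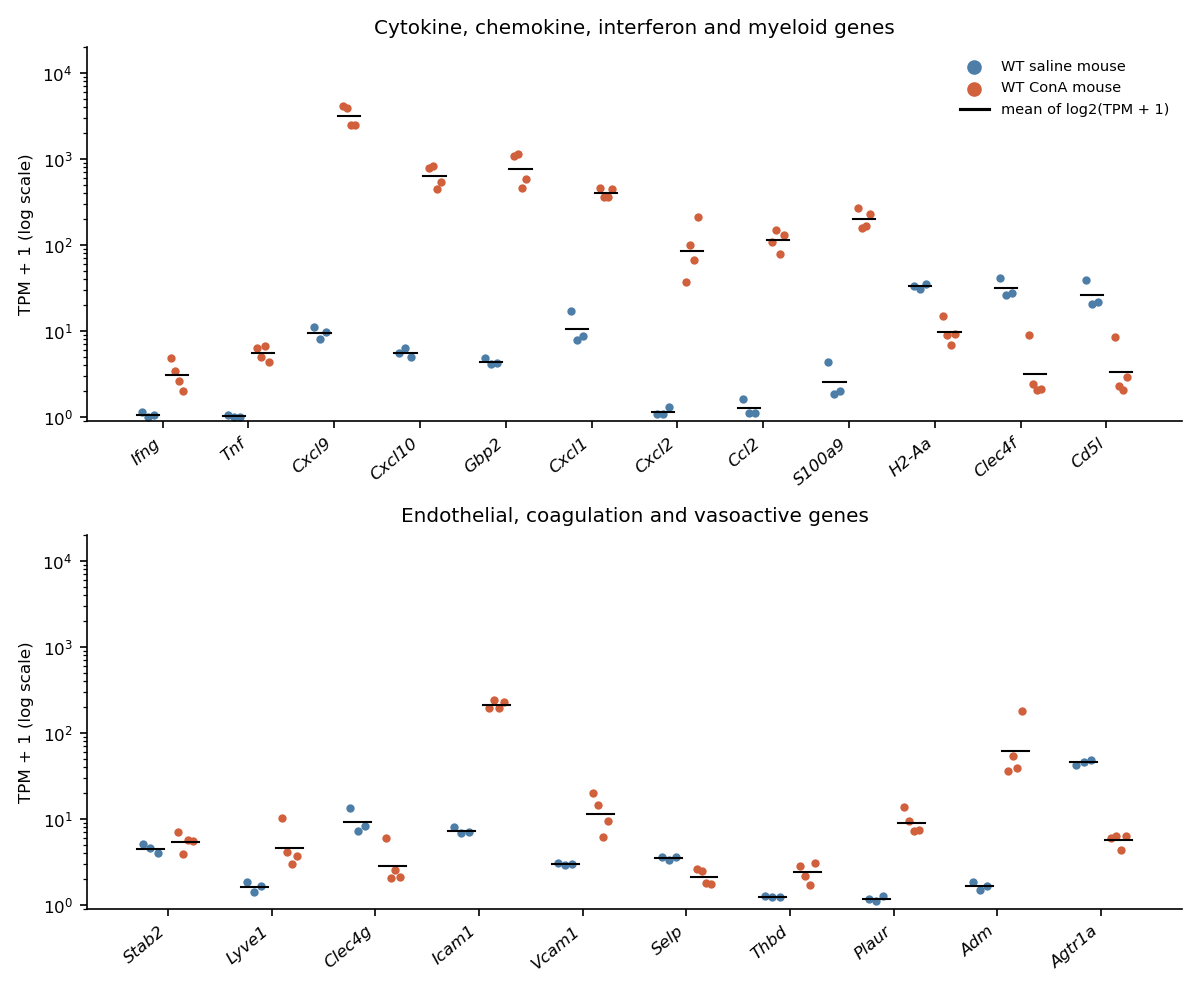
TPM + 1 (y axis, log scale) of named immune genes (top) and vascular genes (bottom) in each of the 3 WT saline and 4 WT ConA mice, with black lines at the mean of log2(TPM + 1). Cxcl9, Gbp2 and Icam1 separate the groups widely, Stab2 overlaps, and Clec4f, Cd5l and Lyve1 are highest among the ConA mice in replicate 1.

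Of the complement genes 8 of 28 rose and 10 fell, near the shares of all tested genes, and the rises numbered 4 with saline replicates 2 and 3 averaged, 5 without saline replicate 2 and 3 without saline replicate 3. Cfb, factor B of the alternative pathway, had 684, 819 and 807 TPM in the saline mice and 1280.3, 1517, 1266 and 1825 TPM in the ConA mice (log2 fold change 0.92, SE 0.16, adjusted p 9.4e-04), and the central component C3 rose (log2 fold change 0.82). The genes of C1q, which macrophages make, were among the falls, and C1qc had 39.1, 22.9 and 27.2 TPM in the saline mice and 18.8, 7.23, 5.03 and 5.6 TPM in the ConA mice (log2 fold change -1.74, SE 0.39, adjusted p 0.00426). The terminal component C9 fell (log2 fold change -1.34). In the list of myeloid growth factors and leukocyte receptors 16 of 27 genes were higher and 4 lower, and 5 of the 27 passed only through the ConA mice. This list also holds other cytokines and signaling adaptors. Tlr2, a receptor of bacterial lipoproteins, had 0.83, 0.43 and 0.63 TPM in the saline mice and 53.3, 58.5, 35.1 and 64.2 TPM in the ConA mice (log2 fold change 5.02, SE 0.21, adjusted p 3.82e-07), and Il18, an inducer of interferon gamma, had 25.2, 25 and 24.04 TPM in the saline mice and 7.5, 7.39, 5.26 and 5.34 TPM in the ConA mice (log2 fold change -1.82, SE 0.16, adjusted p 1.89e-05) while its decoy receptor Il18bp rose (1.53). Among 26 immediate early and MAPK feedback genes, 5 of which passed only through the ConA mice, 18 rose and 3 fell. Junb (3.04) and Jun (2.37), subunits of AP-1, rose, Egr1 was not called (log2 fold change -0.19), and the phosphatase Dusp1 had 58.7, 68.01 and 70.2 TPM in the saline mice and 23.3, 20.5, 19.6 and 46.7 TPM in the ConA mice (log2 fold change -1.31, SE 0.27, adjusted p 0.00307).

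Of 75 cytosolic ribosomal protein genes 64 were not called, 7 rose, 4 fell, and their median was 0.02. With any 1 saline mouse left out 1 or 2 of them rose and 0 fell, and without ConA replicate 3 it was 13 that fell. Of 31 proteasome subunits 8 rose and 0 fell, against 22% and 31% of all tested genes (list median 0.17). The rises were 3 to 5 when 1 saline mouse was left out and 4 with saline replicates 2 and 3 averaged. Of 9 erythroid genes 2 fell, and their list mean was 6.02, 5.0 and 4.93 in the saline mice and 5.29, 4.67, 5.48 and 4.71 in the ConA mice. Their median log2 fold change of -0.24 turned to 0.15 without saline replicate 1, with 2 higher and 1 lower. Mesothelial genes, of which 4 of 5 were called higher, had means of 1.92, 0.43 and 0.49 in saline and 2.05, 2.08, 1.75 and 1.98 in ConA mice, and Msln had 4.39, 0.4 and 0.44 TPM in the saline mice and 6.27, 5.96, 5.69 and 5.15 TPM in the ConA mice (log2 fold change 1.61, SE 0.42, adjusted p 0.00952). The 4 calls became 2 without ConA replicate 1 or 2, without saline replicate 2 or 3, with those 2 saline mice averaged, in the fit of all 14 libraries and with no filter. Saline replicate 1 therefore lay among the ConA mice for this list. Cholangiocyte genes gave 3 higher and 2 lower of 6. Sox9, a factor of bile ducts, had 0.51, 0.78 and 0.45 TPM in the saline mice and 1.73, 2.02, 1.71 and 6.89 TPM in the ConA mice (log2 fold change 1.21, SE 0.35, adjusted p 0.016), replicate 4 being the highest, and the call was lost without saline replicate 1 or 3. Sox9 passed the filter only through the ConA mice, so its call restates in part how it passed. Platelet genes gave 3 higher and 1 lower of 6, with Pf4 at 0.45 to 1.94 TPM in saline and 2.29 to 8.02 TPM in ConA mice.

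Outside the lists, the 10 largest rises without overlap were Crybb3, Serpina3f, Gm4841, Gm12250, Calhm6, Tgm2, Tifa, Wdr92, D17H6S56E-5 and Elf3, with log2 fold changes of 4.67 to 6.75. Crybb3, a crystallin of the eye lens, had 1.48, 0.9 and 0.91 TPM in the saline mice and 342, 124, 313 and 185 TPM in the ConA mice (log2 fold change 6.75, SE 0.33, adjusted p 7.53e-07). Calhm6, a channel of activated macrophages, had 2.18, 1.24 and 1.4 TPM in the saline mice and 166, 118, 80.7 and 69.3 TPM in the ConA mice (log2 fold change 5.33, SE 0.29, adjusted p 1.26e-06). Tgm2, tissue transglutaminase, had 29.6, 28.5 and 29.8 TPM in the saline mice and 1264, 909.6, 1036 and 866 TPM in the ConA mice (log2 fold change 5.06, SE 0.15, adjusted p 6.78e-08). None of these genes overlapped between the groups. Among the 10 largest falls outside the lists were Acot3, Upp2, Tmem25, Cux2, Tk1, Cyp2b13, Acot4, G0s2 and Hsd3b3, with log2 fold changes of -5.98 to -3.7. Acot3, a peroxisomal thioesterase, had 86.96, 168 and 177 TPM in the saline mice and 1.23, 1.64, 0.75 and 1.22 TPM in the ConA mice (log2 fold change -5.98, SE 0.26, adjusted p 4.04e-07), the largest fall of all tested genes. Upp2, a uridine phosphorylase of the liver, had 481, 527 and 556 TPM in the saline mice and 46.1, 14.9, 12.03 and 10.98 TPM in the ConA mice (log2 fold change -4.82, SE 0.41, adjusted p 1.72e-05), and Tk1, the thymidine kinase, had 52.4, 57.3 and 54.2 TPM in the saline mice and 2.96, 3.16, 3.07 and 2.26 TPM in the ConA mice (log2 fold change -3.85, SE 0.14, adjusted p 1.78e-07).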

How the data were processed

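Liver RNA of 14 mice was read as single-end 50-base reads on a BGISEQ-500. The authors deposited 1 table per mouse with TPM values per gene, already normalized for gene length and library total, so depth is unknown and no count test, interval or floor could be given. The submitters' processing notes name Bowtie2, RSEM 1.3.1 and GRCm38.p6, whereas the study's methods name STAR, HTSeq and a count test in edgeR. The 2 sources were not reconciled, and the annotation is not given in the sources used here. The samples were grouped by their GEO labels, which call them biological replicates and name no batch.

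TPM of 1 or more in at least 3 of the 7 WT libraries was required, and log2(TPM + 1) was fitted with limma 3.58.1 (R 4.3.3, lmFit and eBayes with trend), with adjustment over all 10768 genes tested and a threshold of 0.05. With 3 against 4 mice a single exact two-sided rank test cannot go below 0.0571, and no such test was used. Lists, counts and figures were made with Python 3.11.15, pandas 2.3.3, numpy 2.4.6 and matplotlib 3.10.9. The members and lists were chosen with earlier results of these data known. The lists hold 1551 symbols, of which 19 were not matched. For each list the 2 called genes with the largest rise and the 2 with the largest fall without overlap, 22 index genes and the 10 largest rises and falls outside the lists could be named with values in every mouse. The text gives a selection of these, and further list members, chosen after their values were seen. Some genes are not reported here.

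The fit was tested on simulated data for WT ConA against WT saline over 10768 genes: of 100 genes changed by 1 log2 unit 58% were called in the right direction, and of 100 changed by 2 units 95%. Of the unchanged genes 6 were called. The changed genes were drawn from the more abundant ones and were few, whereas 53% of genes were called in the data. The simulated shares therefore check the fit and do not give the power of this comparison. The alternatives were another pseudocount (0.1), 2 other filters, rescaled TPM, a fit of all 14 libraries, robust eBayes, the replicate number as a block, WT saline replicates 2 and 3 averaged, each mouse left out and a minimum fold change. Correlation of deviations between same-numbered mice was -0.05, 0.15 and -0.20, so the numbers were not taken to pair the mice.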

Additional observations from a re-analysis of the deposited data

Results flagged for a closer look

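In the group of 4 ConA mice, the gap of the highest or lowest mouse to its neighbour was compared with Dixon's 95% critical value, for 297 named genes and 61 list means. The 3 saline mice were too few for this. It singled out 19 genes and 3 list means, and chance alone gives about 1 in 20.

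ConA replicate 1 was the outlying mouse for 8 genes. Kupffer cell genes were among them: Clec4f at 7.98 TPM against 1.07 to 1.41 in the other 3 mice, Vsig4 at 1.84 TPM against 0.3 to 0.39 and Timd4 at 1.61 TPM against 0.29 to 0.37. Endothelial genes were highest in the same mouse, with Esam at 12.45 TPM (5.29 to 5.87 in the others) and Dnase1l3 at 5.32 TPM (1.56 to 1.8 in the others). The Wnt target Lgr5 was at 0.51 TPM against 0.24 to 0.27. Saa2 (42234 TPM against 49127 to 49917) and Relb (14.72 TPM against 19.19 to 19.97) were lowest there.

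ConA replicate 3 was outlying for 5 genes and for all 3 list means. This mouse also had a scale factor of 0.81, against 1.01 to 1.08 in the other ConA mice, and the lowest value for 57.9% of tested genes. The flags were computed on TPM that were not rescaled, and how far they follow from that library-wide difference was not tested. The mean log2(TPM + 1) of replicate 3 was 6.79 for cytochrome P450 and phase I enzymes against 7.05 to 7.1. It was 5.29 for IL-6 family and STAT3 targets against 5.68 to 5.71, and 2.89 for circadian clock genes against 3.33 to 3.37. Fgg was lowest in this mouse at 9221 TPM (13880 to 14718 in the others), as were Myc at 4.87 TPM (6.7 to 7.04), Agtr1a at 3.37 TPM (4.94 to 5.28) and Axin2 at 0.56 TPM (0.88 to 0.93). Aldoa was highest, at 500.29 TPM against 393.62 to 397.5.

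ConA replicate 2 stood above the others in Nnmt, at 1343.8 TPM against 991.68 to 1035.1, in Plin2, at 564 TPM against 346.27 to 368.42, and in Ly6d, a surface protein listed among the dendritic cell markers, at 8.31 TPM against 3.5 to 3.78. ConA replicate 4 was lowest in Dbp, at 2.57 TPM against 9.46 to 10.53, and in the immunoproteasome gene Psmb9, at 192.33 TPM against 306.95 to 324.76, and highest in Sox9, at 6.89 TPM against 1.71 to 2.02. What separates single mice was not tested.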

How the results depend on the processing

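The number of called genes was 5704 and ranged from 4531 to 7083 over the fits that left out 1 mouse (1826 to 3476 higher, 2705 to 3607 lower), the highest being without ConA replicate 3. A minimum log2 change of 1 kept 2607 genes, 1098 higher and 1509 lower. The higher genes were 41.5% of all calls, 48.8% in rescaled libraries and 49.1% without ConA replicate 3, and rescaling moved the median of all genes from -0.07 to 0.01. With the replicate number as a block 5065 genes were called, and the numbers were not found to pair the mice. Of 297 named genes 271 kept their side of the threshold and their direction under each alternative run on them. Of 4407 pairs of a gene and an alternative, 82 lost the call, 8 gained it and 2 turned. The latter were Cyp7b1, not called in any fit, with a log2 fold change of -0.28 under the replicate block and -0.28 without ConA replicate 4 (up to 0.51 without ConA replicate 3). Of 1830 list counts under the alternatives 130 moved by more than 1.5 times, for instance ribosomal genes called higher from 7 to 1 with saline replicates 2 and 3 averaged and sinusoidal genes called lower from 8 of 18 tested to 3 of 6 with the filter of 5 TPM, which left fewer genes to test. The cause of the former was not tested. TPM carry no depth, so how far low genes such as Ifng could be measured is unknown.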
